A study of Mus musculus with 18 samples.

Results

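The 10 genes described here encode subunits of CCR4-NOT, the main cytoplasmic deadenylase of mammalian cells. They were chosen by symbol (*Cnot1*, *Cnot2*, *Cnot3*, *Cnot4*, *Cnot6*, *Cnot6l*, *Cnot7*, *Cnot8*, *Cnot10* and *Cnot11*) from the 22524 genes listed, and all 10 were found and measured in every mouse. Liver RNA came from 10 female A226Y mice and 8 female WT mice, 15 months of age, with 1 library per mouse. The question was how transcript levels in liver differ in mice in which part of the ribosomes carry an *Rps2* change that makes decoding error-prone. The A226Y mice were heterozygous for the *Rps2* knock-in, which is switched on by Cre under the CMV promoter, active in nearly all tissues. The WT mice carried the same Cre transgene and no knock-in. According to the study's methods, excision was partial, so an A226Y liver is a mosaic of cells that express the mutant allele and cells in which it remains silent. The study describes the silent allele as leaving *Rps2* haploinsufficient. Mutant ribosomes and a lower *Rps2* dosage therefore cannot be told apart in the mice compared here. Both genotypes were on a C57BL/6 background, to which the 129/Sv-derived knock-in had been crossed. Mice of the *Rps2*-loxP line, which the study used to control for haploinsufficiency, were not analysed here.

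CCR4-NOT shortens the poly(A) tail of cytoplasmic mRNAs, which lowers their translation and leads to decapping and decay. CNOT1 is the scaffold. One exonuclease of the CAF1 type (CNOT7 or CNOT8) binds its middle part and in turn holds one exonuclease of the CCR4 type (CNOT6 or CNOT6L), while the other subunits bind elsewhere on the scaffold. In hepatocytes the complex is known to limit mRNAs of metabolic and stress genes, and RNA-binding proteins, microRNA complexes and slow-decoding ribosomes bring it to its targets.

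The exonucleases come in paralog pairs, so their separate measurement depends on reads that can tell the pair apart. The coding sequences of *Cnot7* and *Cnot8* were identical at 616 of 852 aligned positions (72.3%), and those of *Cnot6* and *Cnot6l* at 1213 of 1648 (73.6%). The stretches of 60 bases shown here are those in which each pair is most alike, from the GENCODE M21 transcripts, and capitals mark the bases that differ. They lie at bases 430 to 489 of the coding sequence for the first pair, with 8 differences, and at bases 814 to 873 for the second, with 7.
*Cnot7*: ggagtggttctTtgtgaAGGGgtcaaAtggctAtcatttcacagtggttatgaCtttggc
*Cnot8*: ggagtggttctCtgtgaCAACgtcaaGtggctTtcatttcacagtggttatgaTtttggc
*Cnot6*: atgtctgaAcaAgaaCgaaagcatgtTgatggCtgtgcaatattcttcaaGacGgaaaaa
*Cnot6l*: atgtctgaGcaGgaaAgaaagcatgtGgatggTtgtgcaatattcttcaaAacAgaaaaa

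The longest run of identical bases was 20 in either pair, and no stretch of 50 bases, the length of 1 read, was shared between the 2 genes of a pair. Other genes did share such stretches. Of the 50-base stretches of *Cnot3*, 31.1% also occur in the pseudogene *Gm9207* or, on the opposite strand, in *Leng1*. The share was 9.79% for *Cnot1* (the pseudogene *Gm6158* and the antisense transcript *4930513N10Rik*), 7.98% for *Cnot8* (the pseudogene *Gm18860*), 3.86% for *Cnot7* (*Zdhhc2*, opposite strand) and 2.31% for *Cnot2* (*5330438D12Rik*, opposite strand). It was 0 for the other 5 members. Reads from the stretches shared with a pseudogene cannot be assigned by sequence, whatever the strand. For the stretches shared with a gene on the opposite strand, the assignment depends on the strand setting of the counting, which was not given in the sources used here. These parts of the 5 genes are therefore uncertain. *Zdhhc2* ranged from 3.48 to 6.33 CPM in A226Y and from 3.21 to 4.76 CPM in WT, and per kb of transcript its mean in A226Y was 1.42 CPM, against 10.1 for *Cnot7*. Its part in the values of *Cnot7* was not tested.

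Total counts per mouse were 23850565 to 62126131 in A226Y (median 32058379) and 25869192 to 34918732 in WT (median 31702989). Levels are given as CPM, read counts scaled to library size and then by TMM between libraries. Genes were compared with the two-sided quasi-likelihood test of edgeR, with Benjamini-Hochberg adjustment over the 13353 genes tested. All 10 members were among them. A gene is called changed at an adjusted p under 0.05, which applied to 1910 genes (14.3%), 971 of them higher in A226Y (7.27%) and 939 lower (7.03%). *Rps2* itself, summed over both alleles, was at 68.6 ± 13.3 CPM in A226Y (SD, n = 10) and 114 ± 13 CPM in WT (SD, n = 8), and it was lower in each A226Y mouse than in any WT mouse. The hepatocyte markers *Alb*, *Apoa1*, *Ttr*, *Cps1* and *Serpina1a* summed to at least 63700 CPM in every mouse. In RNA of whole liver, fewer cells of a type and less RNA per cell cannot be told apart.

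Among the subunits, the scaffold *Cnot1* and the exonuclease gene *Cnot6* rose in the A226Y mice, by 14.3% and 17.2%. No member fell by the same test, although *Cnot8* was at −15.7% with an adjusted p of 0.0634 from edgeR. The called members are 2 of 10, or 20% against 14.3% of all genes, and both are in the higher direction, in which 7.27% of all genes were called. At an unadjusted p under 0.05, 3 members were higher, against 14.9% of all genes, and 1 was lower, against 14.7% of all genes. DESeq2 and limma-voom, which called 18.1% and 14% of all genes, also called 2 members higher and 0 lower. The median log2 fold change of the 10 was 0.05, with 7 positive and 3 negative values, and that of all genes was −0.004. The ranges of the 2 genotypes overlapped for every member. Across all genes they did not overlap for 85 (0.637%).

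**Figure D1:**
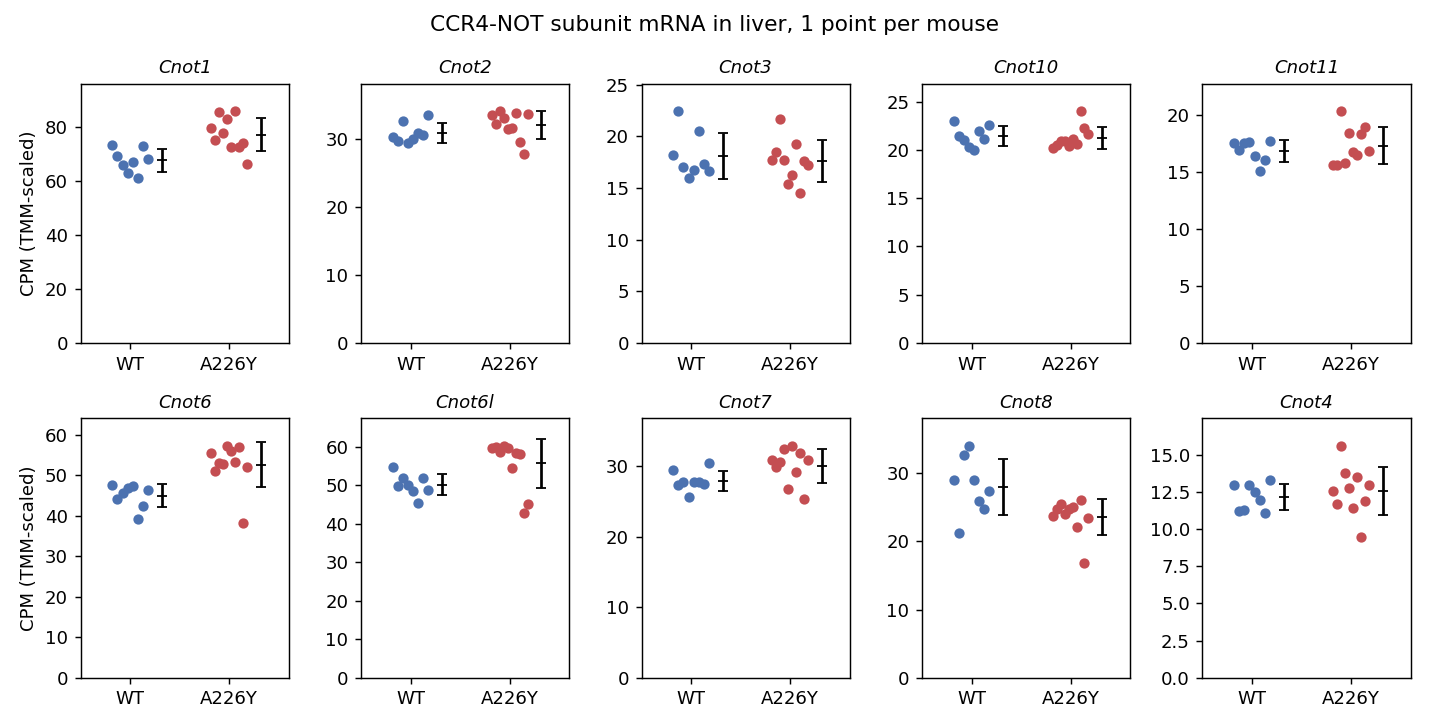
TMM-scaled CPM of the 10 CCR4-NOT subunit genes, 1 point per mouse, with 8 WT mice in blue and 10 A226Y mice in red. Bars are the mean and SD of the genotype and every axis starts at 0. Most A226Y points of *Cnot1* and *Cnot6* lie above the WT points, and all A226Y points of *Cnot8* lie below the WT mean of 28 CPM.

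*Cnot1* (ENSMUSG00000036550, chromosome 8 of GRCm38 from 95719451 to 95807464, minus strand) encodes the scaffold on which the complex is built. It ranged from 66.3 to 85.8 CPM in A226Y with a median of 76.5, and from 61.3 to 73.2 CPM in WT with a median of 67.6. In A226Y, 7 of 10 mice lay above every WT mouse, and 3 of 8 WT mice lay below every A226Y mouse, so that the ranges overlapped between 66.3 and 73.2 CPM. The means were 77.3 ± 6.26 CPM (SD, n = 10) and 67.6 ± 4.31 CPM (SD, n = 8). On the log2 scale *Cnot1* was higher by 0.19, with a 95% interval from 0.075 to 0.31 and a standard error of 0.06 (adjusted p = 0.0276 from edgeR). A two-sided exact permutation test on log2 CPM, which runs through the 43758 ways to divide the mice, gave p = 0.00238. Permutation p-values of single genes are not adjusted, and the unadjusted p from edgeR was 0.00269. The call was lost with a per-library length correction (0.07, adjusted p = 0.328), with a GC correction (0.15, adjusted p = 0.0545) and with 4 surrogate variables as covariates (0.15, adjusted p = 0.345). It was also lost when A226Y mouse 7 or WT mouse 13, 14 or 24 was left out (adjusted p = 0.0523, 0.0545, 0.0598 and 0.0603 from edgeR).

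*Cnot2* and *Cnot3* encode the NOT module, which binds the carboxy-terminal part of the scaffold and joins the complex to regulators and to the ribosome. *Cnot2* was between 27.8 and 34.0 CPM in A226Y and between 29.4 and 33.4 CPM in WT. The A226Y mean was 32 ± 2.03 CPM (SD, n = 10) and the WT mean 30.8 ± 1.43 CPM (SD, n = 8), with a log2 fold change of 0.05 (95% interval −0.042 to 0.15, adjusted p = 0.458 from edgeR). The CNOT3 protein contacts slowly decoding ribosomes, and its gene was at 17.6 ± 2.01 CPM in A226Y (SD, n = 10) and 18.1 ± 2.24 CPM in WT (SD, n = 8), a log2 fold change of −0.04 (95% interval −0.208 to 0.12, adjusted p = 0.751 from edgeR). The overlapping gene *Leng1* was at 11.2 and 11.7 CPM in the same mice, and how far it enters the *Cnot3* values was not tested.

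*Cnot10* and *Cnot11* encode a pair of proteins that bind the amino-terminal part of the scaffold. *Cnot10* varied least in A226Y, from 20.2 to 24 CPM, against 20 to 23 CPM in WT. The 95% interval of its log2 fold change ran from −0.104 to 0.083 around −0.01. *Cnot11* was at 17.3 ± 1.6 CPM in A226Y (SD, n = 10) and 16.8 ± 0.927 CPM in WT (SD, n = 8), with a 95% interval from −0.082 to 0.161 around 0.04. The adjusted p-values were 0.899 and 0.692. *Cnot4* encodes a ubiquitin ligase that in mammals is only loosely attached to the complex and acts on stalled ribosomes. Per kb of transcript it was the lowest of the members in both genotypes. Its CPM was 12.6 ± 1.63 CPM in A226Y (SD, n = 10) and 12.2 ± 0.906 CPM in WT (SD, n = 8). Its log2 fold change was 0.05 (95% interval −0.115 to 0.206, adjusted p = 0.737 from edgeR).

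The 4 exonuclease genes held the largest differences in both directions. *Cnot6* (ENSMUSG00000020362, chromosome 11 from 49671503 to 49712723, minus strand), of the CCR4 type, ranged from 38.2 to 57.2 CPM in A226Y with a median of 53.2, and from 39.3 to 47.5 CPM in WT with a median of 46.0. Of the A226Y mice, 9 lay above every WT mouse, while mouse 29 lay below all of them. The rise was 0.23 on the log2 scale, with a standard error of 0.07 and a 95% interval from 0.092 to 0.366 (adjusted p = 0.0257 from edgeR). Without adjustment, p was 0.00236 from edgeR and 0.005 from the exact permutation test. The rise was 0.16 with the length correction (adjusted p = 0.116), 0.14 with the GC correction (adjusted p = 0.0698) and 0.24 with the surrogate variables (adjusted p = 0.0959 from edgeR). Leaving out WT mouse 24, which had the lowest WT value, gave 0.20 and an adjusted p of 0.0575. Under the surrogate variables 0.374% of all genes were called, after the length correction 11.5% and after the GC correction 12.2%, and 0 members were called in any of these 3 fits. At an unadjusted p under 0.05, edgeR with the surrogate variables gave 2 higher members and 0 lower, where 7.05% and 7.84% of all genes were higher and lower. With the length correction it gave 2 higher and 1 lower, against 14.2% and 13.5% of all genes. With the GC correction it also gave 2 higher and 1 lower, against 14.7% and 13.8% of all genes.

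*Cnot6l*, the other CCR4-type gene, ranged from 42.9 to 60.2 CPM in A226Y (median 58.6) and from 45.5 to 54.9 CPM in WT (median 50). Here 7 A226Y mice lay above every WT mouse and 2, mice 29 and 32, below every WT mouse. Its log2 fold change of 0.15 (95% interval 0.009 to 0.292, adjusted p = 0.144 from edgeR) did not pass the test with all mice, and reached an adjusted p of 0.0269 and a log2 fold change of 0.19 without mouse 29. After the correction for length it was 0.02 (adjusted p = 0.85) and after that for GC content 0.04 (adjusted p = 0.603). *Cnot6l* has the longest transcript of the members, 8564 bases.

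*Cnot7* (ENSMUSG00000031601, chromosome 8 from 40492540 to 40515847, minus strand), of the CAF1 type, ranged from 25.3 to 32.8 CPM in A226Y (median 30.7) and from 25.6 to 30.4 CPM in WT (median 27.7). In A226Y, 6 mice lay above every WT mouse and 1 below. The difference in log2 was 0.11, with a 95% interval from −0.004 to 0.216 (standard error 0.05, adjusted p = 0.185 from edgeR). With the GC correction it was 0.02 (adjusted p = 0.752). The paralog *Cnot8* (ENSMUSG00000020515, chromosome 11 from 58104153 to 58118594, plus strand) ranged from 16.8 to 26.1 CPM in A226Y (median 24.4) and from 21.3 to 34.0 CPM in WT (median 28.2). All 10 A226Y mice lay below the WT mean and 5 WT mice lay above every A226Y mouse. WT mouse 6, at 21.3 CPM, lay below all A226Y mice but mouse 29. In log2 the difference was −0.25, with a 95% interval from −0.429 to −0.064 (standard error 0.09, adjusted p = 0.0634 from edgeR). Without adjustment, p was 0.0107 from edgeR and 0.016 from the exact permutation test. The difference was −0.29 when WT mouse 6 was left out (adjusted p = 0.0168), and −0.08 with the surrogate variables (adjusted p = 0.59 from edgeR).

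**Figure D2:**
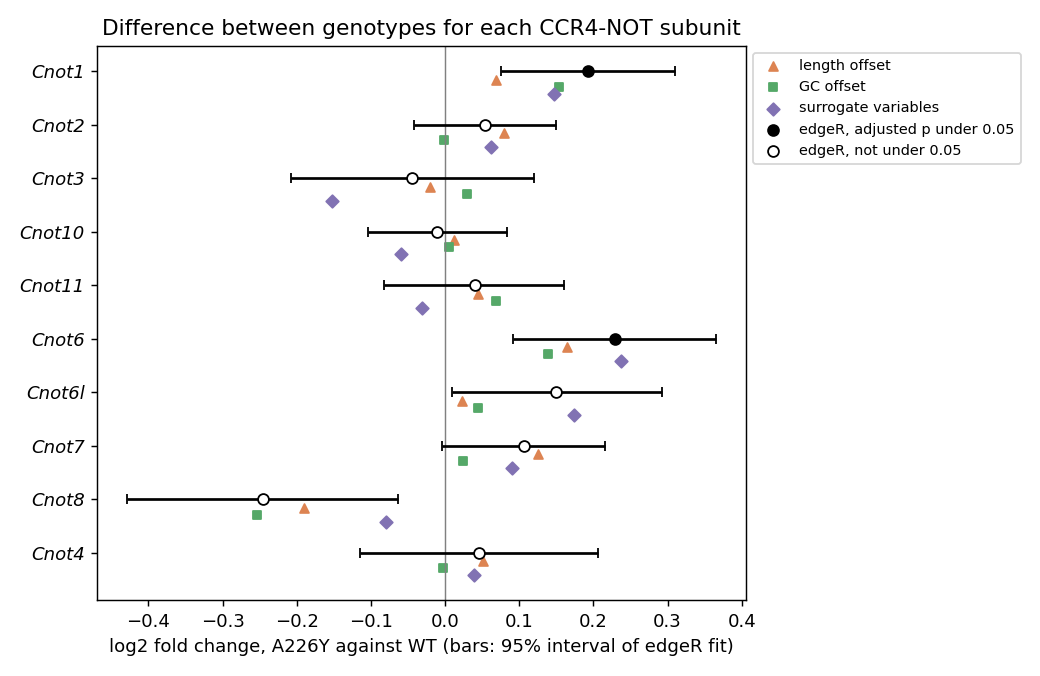
Log2 fold change of each subunit gene in A226Y against WT, with the 95% interval of the edgeR fit as a bar and filled circles where the adjusted p was under 0.05. Coloured symbols give the value after the length correction, after the GC correction and with surrogate variables. For *Cnot1* the value moves from 0.19 to 0.07 with the length correction, and for *Cnot8* from −0.25 to −0.08 with the surrogate variables.

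Since a ratio of 2 genes within a library does not depend on scaling, the paralogs were also compared within each mouse. The log2 ratio of *Cnot7* to *Cnot8* counts (0.5 added to each) ranged from 0.11 to 0.59 in A226Y, with a median of 0.39, and from −0.41 to 0.36 in WT, with a median of 0.05. All 10 A226Y mice lay above the WT mean, although the ranges overlapped. Its mean over mice was 0.35 ± 0.13 in A226Y (SD, n = 10) and 0.01 ± 0.24 in WT (SD, n = 8). The difference of 0.35, a 1.27-fold higher ratio, had p = 0.000617 in a two-sided exact permutation test and 0.00123 after adjustment over the 2 ratios compared. After the corrections for length and GC content it was 0.31 and 0.27 (exact permutation p = 0.00135 and 0.00816), corrections chosen for the ratios after the data were seen. The difference between the log2 fold changes of the 2 genes in the surrogate variable fit was 0.17, and was not tested.

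The log2 ratio of *Cnot6* to *Cnot6l* ranged from −0.23 to 0.21 in A226Y (median −0.12) and from −0.29 to −0.04 in WT (median −0.18). The difference between the means was 0.08 (two-sided exact permutation test, p = 0.153), within the spread between mice. After the correction for length the difference was 0.14 (exact permutation test, p = 0.015). After the correction for GC content it was 0.10 (exact permutation test, p = 0.0936).

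**Figure D3:**
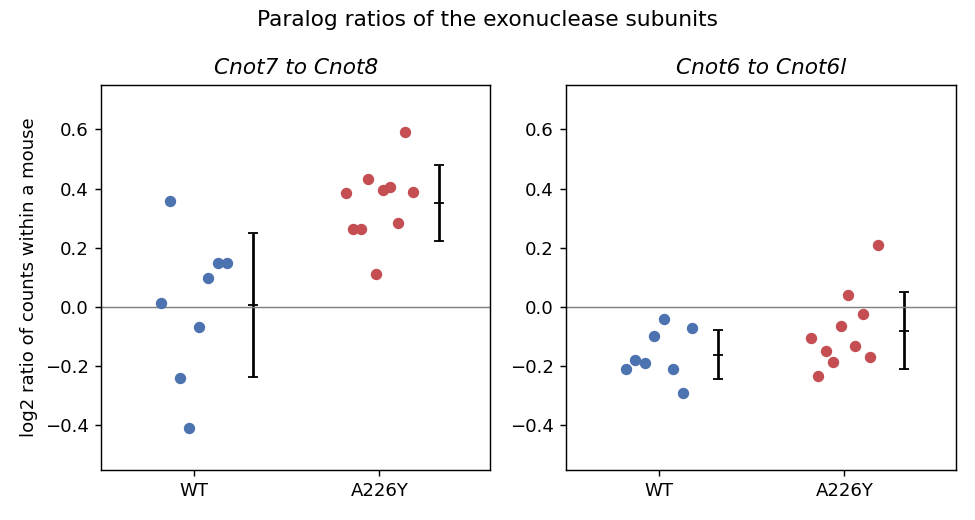
Log2 ratio of counts within each mouse for the 2 pairs of exonuclease paralogs, 1 point per mouse (8 WT, 10 A226Y), with the mean and SD. The A226Y values of *Cnot7* to *Cnot8* all lie above 0, from 0.11 to 0.59, and the WT values spread from −0.41 to 0.36.

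To compare levels between genes, CPM was divided by the length of the longest coding transcript in kb. Which transcripts of each gene liver expresses was not determined, and the stretches shared with other genes were not corrected for. The SDs hold only the spread between mice, so the order is approximate. In WT the order from the highest was *Cnot8* (13.4 ± 1.98 CPM per kb), *Cnot2* (11 ± 0.509), *Cnot7* (9.36 ± 0.48), *Cnot1* (8.06 ± 0.514), *Cnot6* (7.83 ± 0.494), *Cnot10* (7.51 ± 0.364), *Cnot3* (6.41 ± 0.795), *Cnot6l* (5.86 ± 0.327), *Cnot11* (4.83 ± 0.266) and *Cnot4* (3.51 ± 0.261), each with SD and n = 8. Neighbours overlapped in their ranges over mice except *Cnot2* and *Cnot7*, *Cnot6l* and *Cnot11*, and *Cnot11* and *Cnot4*. The highest was 3.81 times the lowest in WT and 3.16 times in A226Y. In A226Y *Cnot2* (11.4 ± 0.724 CPM per kb) and *Cnot8* (11.3 ± 1.26 CPM per kb) stood side by side at the top with overlapping ranges (SD, n = 10). On this scale the mean of either CAF1-type gene was above that of either CCR4-type gene in both genotypes. The sum of the 10 members was 295.9 to 365.7 CPM in A226Y (median 345.2) and 300.3 to 336 CPM in WT (median 315.8).

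**Figure D4:**
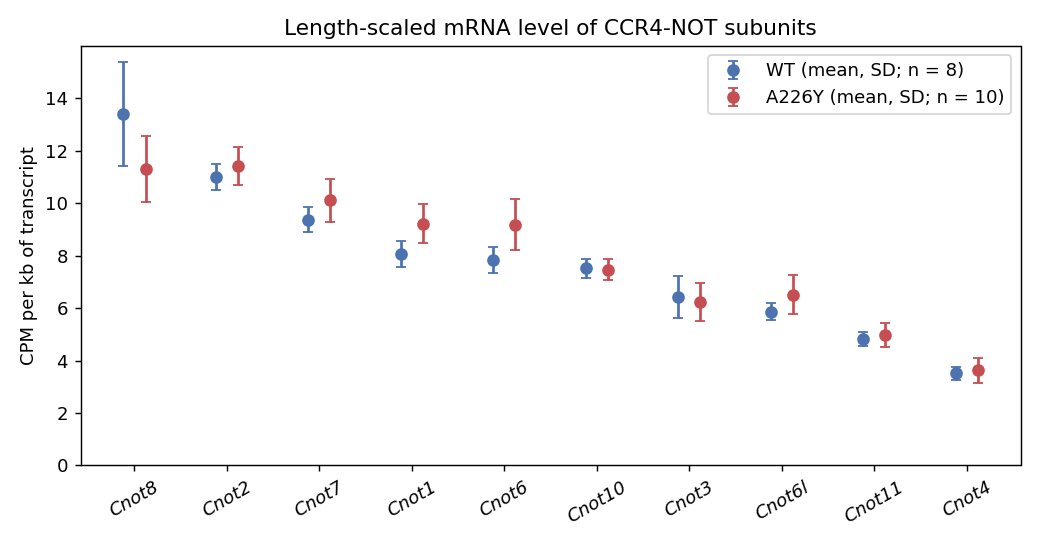
Level of each subunit gene in CPM per kb of transcript, as mean and SD over 8 WT mice (blue) and 10 A226Y mice (red), in the order of the WT means. The means fall from 13.4 for *Cnot8* to 3.51 for *Cnot4* in WT.

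Promoter windows from RefSeq (GRCm38.p6) were at hand for 8 of the 10 members, and *Cnot1* and *Cnot7* had none. They are shown for *Cnot6* and *Cnot8*, the genes with the largest difference in each direction. Each is the 100 bases before the start annotated by RefSeq, with motif matches in capitals. The first lies at chr11:49712723-49712822 on the minus strand and holds a CCAAT box. The second lies at chr11:58104129-58104228 on the plus strand, is the one of 4 *Cnot8* windows nearest to the GENCODE start, and holds a GC box. Its RefSeq start is 76 bases from the GENCODE start at 58104153. Most of the bases shown, the GC box among them, therefore lie inside the GENCODE gene.
*Cnot6*: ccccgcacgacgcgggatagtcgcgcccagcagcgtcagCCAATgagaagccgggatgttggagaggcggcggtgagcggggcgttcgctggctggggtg
*Cnot8*: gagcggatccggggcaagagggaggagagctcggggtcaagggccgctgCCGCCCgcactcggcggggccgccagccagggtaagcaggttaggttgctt

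Over the 250 bases before the start and on both strands, the GC box GGGCGG was found in 8 of 8 members, with 1 window for each, the one nearest to its GENCODE start. Counted by window, it was in 11 of the 14 windows of these genes, against 32.7% of all 32851 windows. The windows used for *Cnot2*, *Cnot11* and *Cnot6l* start 975, 709 and 2181 bases from the GENCODE start. CCAAT was in 2 of the 14 windows (*Cnot3* and *Cnot6*), against 33.8% of all windows. TATAAA was in 0 of the 14, against 12.4% of all windows. No 2 of these motifs can match the same bases in full, and a match is a description of the sequence only.

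The neighbouring steps of mRNA decay were followed in 4 lists of 69 tested genes in all, of which edgeR called 5 (7.25%), against 14.3% of all genes. These 5 were higher, where 7.27% of all genes were called higher and 7.03% lower. DESeq2, which called 18.1% of all genes, called 6 of the 69 higher and 3 lower. From limma-voom, which called 14% of all genes, 4 were higher and 0 lower. Of 20 genes listed as adaptors that bring CCR4-NOT to mRNAs, the adaptor-binding subunit gene *Cnot9* among them, edgeR called 3 higher and 0 lower, and DESeq2 called 3 higher and 1 lower. The median of their log2 fold changes was 0.08. At an unadjusted p under 0.05, 4 were higher and 1 lower in edgeR, against 14.9% and 14.7% of all genes. *Pum2*, an RNA-binding protein that recruits the deadenylase to Pumilio sites, ranged from 69.6 to 82.6 CPM in A226Y (median 76.7) and from 57.7 to 69.0 CPM in WT (median 65.4). All A226Y mice lay above all WT mice. The rise in log2 was 0.24, with a standard error of 0.05 (adjusted p = 0.00481 from edgeR). Without adjustment, p was 9.86e-05 from edgeR and 4.57e-05 from the exact permutation test. *Pum2* was called in each of the 18 fits that left out 1 mouse and after the corrections for length and GC content (adjusted p = 0.0409 and 0.0157), but not with the surrogate variables (0.23, adjusted p = 0.0798 from edgeR).

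*Ago2*, the core of the microRNA complex, rose from 32.2 ± 3.55 CPM (SD, n = 8) to 38.2 ± 3.36 CPM (SD, n = 10), a log2 fold change of 0.24 (adjusted p = 0.0207 from edgeR). *Rc3h2*, which encodes the stem-loop binding protein Roquin-2, rose from 18.2 ± 1.23 to 21.2 ± 1.78 CPM, a log2 fold change of 0.22 (adjusted p = 0.0179). Both calls were lost after the correction for length (0.07, adjusted p = 0.365 for *Ago2* and 0.09, adjusted p = 0.309 for *Rc3h2*) and with the surrogate variables (0.14, adjusted p = 0.279 and 0.21, adjusted p = 0.23). With the GC correction *Ago2* stayed called (0.24, adjusted p = 0.0261) and *Rc3h2* did not (0.12, adjusted p = 0.127). *Cnot9* was at 18.9 ± 1.61 CPM in A226Y (SD, n = 10) and 18.2 ± 1.45 CPM in WT (SD, n = 8), with an adjusted p of 0.59 from edgeR.

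Of the other deadenylases and poly(A)-binding proteins, edgeR, DESeq2 and limma-voom each called 1 of 14 higher and 0 lower, and the median log2 fold change was −0.01. At an unadjusted p under 0.05, 2 were higher and 1 lower in edgeR, against 14.9% and 14.7% of all genes. The gene called by edgeR was *Paip1*, a partner of the poly(A)-binding protein in translation, with a log2 fold change of 0.17 (adjusted p = 0.0371 from edgeR). Of 19 genes of decapping and 5′-to-3′ decay, edgeR called 1 higher and 0 lower, with a median of 0.05. DESeq2 called 2 higher and 1 lower, and limma-voom called 0. With the GC correction edgeR called 0 higher and 1 lower. At an unadjusted p under 0.05, 4 of the 19 were higher and 3 lower in both edgeR and limma-voom, against 14.9% and 14.7% of all genes in edgeR. The gene called by edgeR without a correction was *Patl1*, which links deadenylated mRNAs to decapping, with a log2 fold change of 0.19 (adjusted p = 0.0438). *Paip1* was called in 8 and *Patl1* in 6 of the 18 fits that left out 1 mouse. The call of *Paip1* was kept with the length correction (0.20, adjusted p = 0.021) and lost with the GC correction (0.07, adjusted p = 0.355) and the surrogate variables (0.08, adjusted p = 0.48). That of *Patl1* was lost with all 3 (adjusted p = 0.0613 for length, 0.0804 for GC content and 0.167 with the surrogate variables). Of 16 genes of the exosome and the Ski complex, 0 were called by edgeR or limma-voom and 1, lower, by DESeq2. With the length correction edgeR called 1, higher. At an unadjusted p under 0.05, 2 of the 16 were higher and 1 lower in edgeR without a correction. The lowest p-values were those of *Dis3l* (−0.19, adjusted p = 0.0532) and *Dis3* (0.25, adjusted p = 0.0765), which encode catalytic subunits of the exosome. *Dis3l* was called in 4 and *Dis3* in 1 of the 18 fits that left out 1 mouse. With the surrogate variables they were at −0.11 (adjusted p = 0.422) and 0.05 (adjusted p = 0.849 from edgeR). Neither was called with the length or the GC correction.

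**Figure D5:**
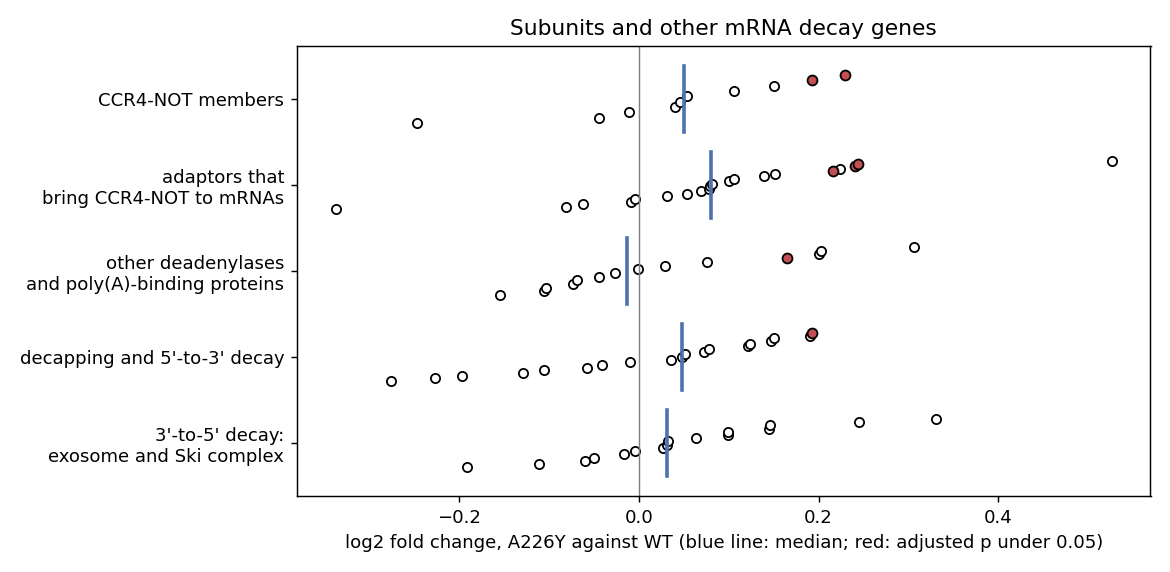
Log2 fold change in A226Y against WT for the subunit genes and for 4 lists of other mRNA decay genes, 1 point per gene, with a blue line at the median of each list. Red points had an adjusted p under 0.05 in edgeR and number 2 for the subunits and 3, 1, 1 and 0 for the other lists from top to bottom.

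Markers of other liver cells were measured in the same mice. The 6 Kupffer cell markers summed to 221 to 920 CPM in A226Y (median 303) and 331 to 673 CPM in WT (median 491), with 1 of 6 called lower and an exact permutation p of 0.0537 for the sum. Of the 5 hepatocyte markers, 1 was called higher and 1 lower, and of the 5 stellate cell markers 1 was called lower. Of the sinusoidal, cholangiocyte, lymphocyte and red cell markers, 0 of 5, 0 of 5, 0 of 6 and 0 of 5 were called by edgeR. Across all genes 14.3% were called. By sign alone, 6 of 6 lymphocyte, 5 of 5 red cell and 5 of 6 Kupffer markers were lower (median log2 fold changes −0.31, −0.45 and −0.43). All 5 cholangiocyte markers were higher (median 0.21). The hepatocyte, sinusoidal and stellate markers went both ways. The lymphocyte, red cell and cholangiocyte sums had exact permutation p of 0.361, 0.273 and 0.187. None of the markers was at 0 in all mice. A226Y mouse 29 had the highest Kupffer sum, 920 CPM, and the lowest hepatocyte sum, 63700 CPM. WT mouse 33 had the highest hepatocyte, lymphocyte and red cell sums (166000, 44.4 and 764 CPM). The part of these cells in the values of the subunit genes was not tested.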

How the data were processed

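Liver RNA of 10 A226Y and 8 WT mice was analysed. For each mouse the authors deposited a whole-number read count for each Ensembl gene, without normalization. The study's methods name RSEM with an Ensembl annotation, whereas the submitters' processing notes name STAR, featureCounts and GRCm38, and which of them made the counts is not given in the sources used here. Symbols and coordinates came from GENCODE M21 (GRCm38), which matched 22291 of 22524 identifiers.

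A gene was tested if 50% or more of the mice of either genotype had 10 or more counts. The quasi-likelihood test of edgeR (version 4.0.16, under R 4.3.3) was used on TMM-scaled counts without covariates, and p-values were adjusted by Benjamini-Hochberg. The common biological coefficient of variation was 0.194. The standard error was the size of the log2 fold change divided by the square root of F. Totals were at least 23850565 counts per mouse. The counting error expected from the mean count of a member was 1.95% (*Cnot1* in A226Y) to 5.19% (*Cnot4* in WT) of its level. Its share of the spread differed between members: it was 3.91% against a coefficient of variation of 4.84% between mice for *Cnot10* in WT, and 4.25% against 12.4% for *Cnot3* in WT. All same-genotype pairs of mice differed by more than sampling noise (chi-square per degree of freedom at least 19.7). Alternatives were RLE, upper-quartile and total-count scaling, other filters, limma-voom (limma 3.58.1), DESeq2 1.42.0, surrogate variables (sva 3.50.0), lowess corrections of each library for the length or the GC content of transcripts (span 0.3, 3 iterations) and leaving out each mouse. Scripts were tested on simulated data.

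All 10 members are named. From each related list, up to 4 called genes with the largest changes are named, or those with the 2 lowest p-values where none passed, and *Cnot9*, *Zdhhc2* and *Leng1* were added. The members and the lists were chosen with earlier results of these data known. Of the listed genes, *Samd4b* and *Exosc6* were not analysed here, and *Nanos1*, *Nanos3* and *Pabpc1l* were below the filter.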

Additional observations from a re-analysis of the deposited data

Results flagged for a closer look

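In A226Y, *Cnot6* in mouse 29 was 38.2 CPM, far below the nearest of the other A226Y mice (51.1 CPM). The same mouse had 16.8 CPM of *Cnot8*, with 22.1 CPM in the nearest. Both gaps are a larger share of the range of the genotype (0.679 and 0.563) than Dixon's limit at the 95% level allows for 10 samples. Chance alone passes this limit in about 1 of 20 groups, and 20 groups were examined (10 members in both genotypes). Mouse 29 was the lowest A226Y mouse in 5 of 10 members, all 4 exonuclease genes and *Cnot2*. It also had the highest Kupffer cell marker sum of the 18 mice, 920 CPM, and the part of that in these values was not tested.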

How the results depend on the processing

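The members called (2 with edgeR) were 2 under RLE, upper-quartile and total-count scaling, both other filters, DESeq2 and limma-voom, and 0 with surrogate variables, the length offset or the GC offset. With 1 mouse left out they ranged from 0 to 3, and 6 of 10 members had the same call in all 18 of these fits. Of all tested genes, 1910 were called, and 50 with surrogate variables. Leaving out 1 mouse gave 1255 to 2560, the lowest without WT mouse 14. With total-count scaling, 67.9% of 2059 called genes were higher, against 50.8% of 1910. The genes of the related lists called were 5, and 10 with total-count scaling, 9 with DESeq2, 3 without the filter and 0 with surrogate variables. They were 3 with the length offset (3 higher, 0 lower) and 3 with the GC offset (2 higher, 1 lower). They ranged from 3 to 12 with 1 mouse left out, the highest without WT mouse 6. The difference in the log2 ratio of *Cnot6* to *Cnot6l* was 0.08, and 0.139 with the length offset, an alternative chosen after seeing the data. That of *Cnot7* to *Cnot8* stayed between 0.286 and 0.396 with 1 mouse left out (exact permutation p from 0.000154 to 0.00185). The cause of these changes was not tested. No paired analysis was done, because the sample labels give no litter or other pairing of mice between the 2 genotypes.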

Other observations

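Within the list of adaptors, the largest log2 fold changes belonged to genes that did not pass the edgeR test, named here after their values were seen. *Btg2*, an antiproliferative gene whose protein binds the CAF1-type exonucleases, ranged from 7.56 to 52.9 CPM in A226Y (median 14.8) and from 7.77 to 29.2 CPM in WT (median 11.1). Its log2 fold change of 0.53 had a 95% interval from −0.176 to 1.228 (adjusted p = 0.306 from edgeR). *Zfp36l1*, which recruits the complex to AU-rich mRNAs, was at 106 ± 18.6 CPM in A226Y (SD, n = 10) and 134 ± 22.6 CPM in WT (SD, n = 8), and all 10 A226Y mice lay below the WT mean. Its log2 fold change was −0.34, with an adjusted p of 0.0563 from edgeR, 0.0612 from limma-voom and 0.033 from DESeq2, so that DESeq2 alone of these 3 tools called it lower.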
